A study of Mus musculus with 10 samples.

Results

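The 19 semaphorins, 9 plexins and 2 neuropilins listed here are genes of one guidance system, though not every class 3 semaphorin is among them. They were taken from the genes on the array by a name rule that used no values, though earlier results of these data were known. They are 30 of the 19938 genes that had a transcript cluster of their own, a cluster being the group of probes that reports one gene. The signals came from hearts of mouse embryos at E10.5, of which 5 samples were WT (Cxadr +/+) and 5 were CAR KO (Cxadr -/-). CAR, the coxsackievirus and adenovirus receptor encoded by Cxadr, is a cell adhesion protein of the immunoglobulin superfamily found at contacts between cells. The KO allele was a deletion carried in every cell of the embryo (mouse line B6.Cg-Cxadr tm1/Fgr), not one limited to the myocardium, and both genotypes were obtained by breeding CAR+/- mice. No embryo was treated. Each sample was a pool of 3 whole hearts, 15 hearts per genotype, so a value is an average over embryos and over all cell types of the heart. The comparison of CAR KO with WT asks which of these guidance transcripts differed in the heart when CAR was absent.

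Semaphorins are extracellular cues that share a sema domain and steer migrating cells and growing vessels. Class 3 members are secreted, classes 4 to 6 span the membrane and Sema7a is held by a lipid anchor. Plexins are their signalling receptors, which act through a GTPase-activating domain inside the cell, and neuropilins are co-receptors that bind most class 3 semaphorins and, separately, VEGF. In the embryonic heart the system is known for guiding neural crest cells into the outflow tract, for the separation of the aorta from the pulmonary artery, and for the patterning of vessels and of the ventricular wall.

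The genotype labels were borne out by the targeted transcript. Cxadr, on a log2 scale, lay between 8.24 and 8.66 in the WT samples and between 6.23 and 6.69 in the CAR KO samples, so the genotypes did not overlap. The difference was -1.91 (adjusted p = 1.40e-05 in limma). It was the only one of 28944 clusters called at an adjusted p of 0.05. Array medians lay between 7.65 and 7.73. Cardiomyocyte markers were all measured above background (8 of 8, list mean 12.72 to 13.06 over the 10 samples), as were those of endothelium and endocardium (9 of 9, 10.89 to 11.37). Both lists were lowest in sample 5 of each genotype. The epicardial list (5 of 5 above background) lay between 10.39 and 10.63 in WT and between 9.99 and 10.47 in CAR KO, a difference of means of -0.32. Each of its 5 genes had the lower mean in CAR KO, and 3 passed an unadjusted p of 0.05 in limma (2.71% of all genes did). The macrophage list (5 of 6 above background) lay between 7.71 and 8.08 in WT and between 7.51 and 7.87 in CAR KO, with the lower mean in CAR KO for 6 of 6 genes. The KO mean was also lower for 5 of 5 erythroid, 7 of 9 endothelial and 4 of 8 cardiomyocyte genes. The counts were 7 of 11 for liver and yolk sac and 4 of 7 for cushion mesenchyme. They were 3 of 6 for neural crest and neurons and 1 of 6 for foregut epithelium. Of all genes 45.8% were lower, and of genes above background 50.1%. The part of these lists in the results below was not tested.

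No difference between WT and CAR KO hearts was called for any of the 30 genes. limma passed 0 of 30 at an adjusted p of 0.05, against 0.00345% of all clusters, and each of the 30 had an adjusted p of 1.0. At an unadjusted p under 0.05 the count was again 0 of 30, where 2.4% of all clusters passed, while the methods' t-test on the same values passed 1 gene, Plxnb2. For no member did the samples of the genotypes fail to overlap, against 0.461% of genes. Since a missed threshold is no proof of equal levels, the width of every 95% interval was also read, with 1.5-fold up or down as the limit. For 28 of 30 members (93.3%) the interval lay inside that limit, close to the 97.4% of all genes. The exceptions were Sema3e, whose interval for the log2 difference ran from -0.30 to 0.72, and Sema6a, whose interval ran from -0.60 to 0.13. Within the narrower limit of 1.2-fold lay 14 of 30 members (46.7%) and 61.3% of all genes. For many members a change of 1.2-fold therefore still lay within the interval with 5 arrays a genotype. Larger differences could also go uncalled. Among the marker genes, Aldh1a2 differed by -0.57 and Upk3b by -0.46, and neither passed an adjusted p of 0.05 in limma. The labels do not say whether the samples came from separate litters, so the p-values measure the spread between these pools of hearts. In whole hearts, fewer cells of a type and less RNA per cell cannot be told apart.

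**Figure D1:**
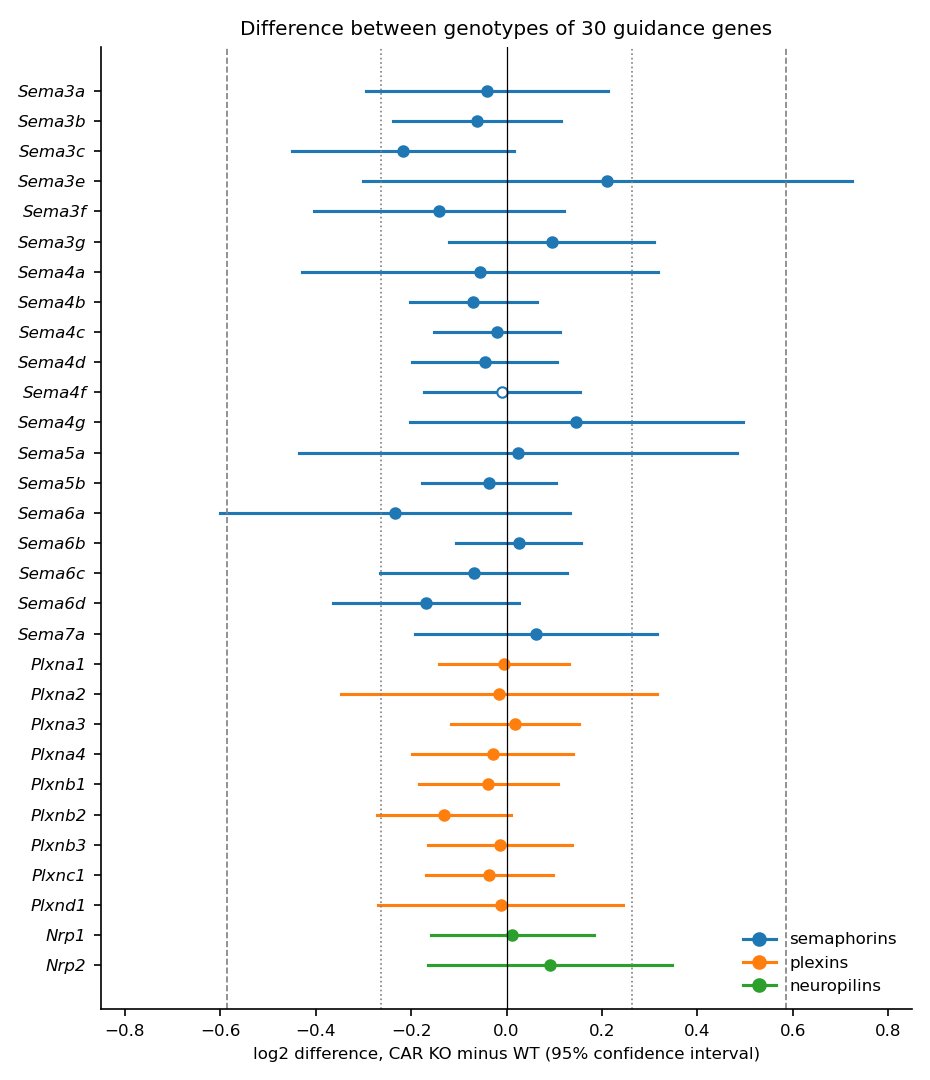
Log2 difference, CAR KO minus WT, of each of the 30 genes (points) with its 95% interval (bars), ordered by class. Dashed lines mark 1.5-fold and dotted lines 1.2-fold changes, and the open point is Sema4f, which was not above background. All 30 intervals include 0 and 28 lie inside the 1.5-fold limit.

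The signs of these small differences leaned to the lower side in CAR KO. The KO mean was lower for 21 of 30 members and higher for 9, against 45.8% of all genes lower and 50.1% of genes above background, and the median log2 difference of the members was -0.024 beside 0.0074 over all genes. CAR KO sample 3 held the lowest KO value for 12 of the 30 genes (40%) and the highest for 0, where it was the lowest for 12% of genes above background. Without that sample 15 of 30 were lower and the median was -0.0023. With the arrays weighted in limma by their spread over all clusters, 17 of 30 were lower. The smallest weights were those of CAR KO sample 5 (0.33) and WT sample 5 (0.59). The spread within a genotype ran from an SD of 0.078 for Sema6b to 0.44 for Sema3e, with a median of 0.139. Across genes above background the median SD was 0.128. These are spreads of single genes, not of a median over 30. The median deviation of the 30 members from their genotype means, taken per sample, had an SD of 0.040 over the 10 samples.

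Among the secreted class 3 ligands, Sema3c had the most negative difference. It is made by outflow tract myocardium and attracts cardiac neural crest cells. Sema3c (chr5:17574816-17730268, build GRCm38.p6) gave log2 signals of 10.04, 9.97, 10.20, 9.97 and 9.84 in WT samples 1 to 5 and of 9.99, 9.79, 9.50, 10.03 and 9.63 in CAR KO samples 1 to 5. CAR KO samples 2, 3 and 5 lay below every WT sample, and CAR KO samples 1 and 4 lay among the WT values. The means were 10.004 ± 0.13 and 9.79 ± 0.23 (SD, n = 5 each), a log2 difference of -0.22 with a 95% interval from -0.45 to 0.02, or from -26.7% to 1.12% relative to WT. In an exact two-sided permutation test over samples the difference had p = 0.127.

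Sema3c and the plexin gene Plxna2 are known targets of Gata6, a cardiac transcription factor whose motif contains GATA. Their upstream sequence is shown because both genes and their regulator were measured here. Each line holds 212 bases of the plus strand from RefSeq (GRCm38.p6), with GATA in capitals. The Sema3c window, chr5:17574566-17574777, runs from 250 to 39 bases before the listed gene start. The Plxna2 window, chr1:194619579-194619790, runs from 212 to 1 bases before it.
Sema3c: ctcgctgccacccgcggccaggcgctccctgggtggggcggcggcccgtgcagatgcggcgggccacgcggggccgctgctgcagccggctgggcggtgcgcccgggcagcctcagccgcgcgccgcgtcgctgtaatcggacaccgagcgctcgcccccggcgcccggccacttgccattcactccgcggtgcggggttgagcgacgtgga
Plxna2: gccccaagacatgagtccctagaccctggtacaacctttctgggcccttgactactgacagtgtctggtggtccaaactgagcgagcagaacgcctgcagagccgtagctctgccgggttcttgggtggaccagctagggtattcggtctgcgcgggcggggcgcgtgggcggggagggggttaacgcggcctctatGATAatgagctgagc
The Plxna2 window held 1 GATA and 0 on the opposite strand (TATC), and the Sema3c window held neither. Of 32851 promoter windows of this length, 49.6% hold GATA on either strand. Gata6 itself was at 12.18 ± 0.07 in WT and 12.21 ± 0.05 in CAR KO (log2 signal, SD, n = 5 each), a difference of 0.02 with an interval from -0.09 to 0.14.

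Sema3a, which repels neural crest cells and sympathetic axons through Nrp1, gave overlapping values in both genotypes. The WT samples 1 to 5 read 10.60, 10.78, 11.18, 11.00 and 11.00, and the CAR KO samples 10.87, 10.82, 10.71, 10.77 and 11.18. The highest values of the genotypes were equal to 2 decimals, and the lowest single value was a WT one. The log2 difference for Sema3a (chr5:13124822-13603485) was -0.04 (-0.29 to 0.21), with p = 0.722 in the exact permutation test.

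Sema3e (chr5:14025276-14256689), which binds Plxnd1 without a neuropilin and repels endothelial cells, was the most variable member. In WT it read 7.02, 6.93, 7.46, 7.29 and 7.68, and in CAR KO 7.17, 8.10, 7.25, 6.90 and 8.02. CAR KO samples 2 and 5 stood above every other sample and CAR KO sample 4 below every other one. The means of 7.28 ± 0.31 and 7.49 ± 0.54 (SD, n = 5 each) gave a difference of 0.21 with a wide interval, from -18.8% to 65.1% relative to WT (exact permutation p = 0.444).

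The remaining secreted members, Sema3b, Sema3f and Sema3g, had log2 differences of -0.06, -0.14 and 0.09, and each interval included 0 and lay inside the 1.5-fold limit. Of the 6 class 3 genes listed here, 5 lay inside that limit and 4 had the lower mean in CAR KO.

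**Figure D2:**
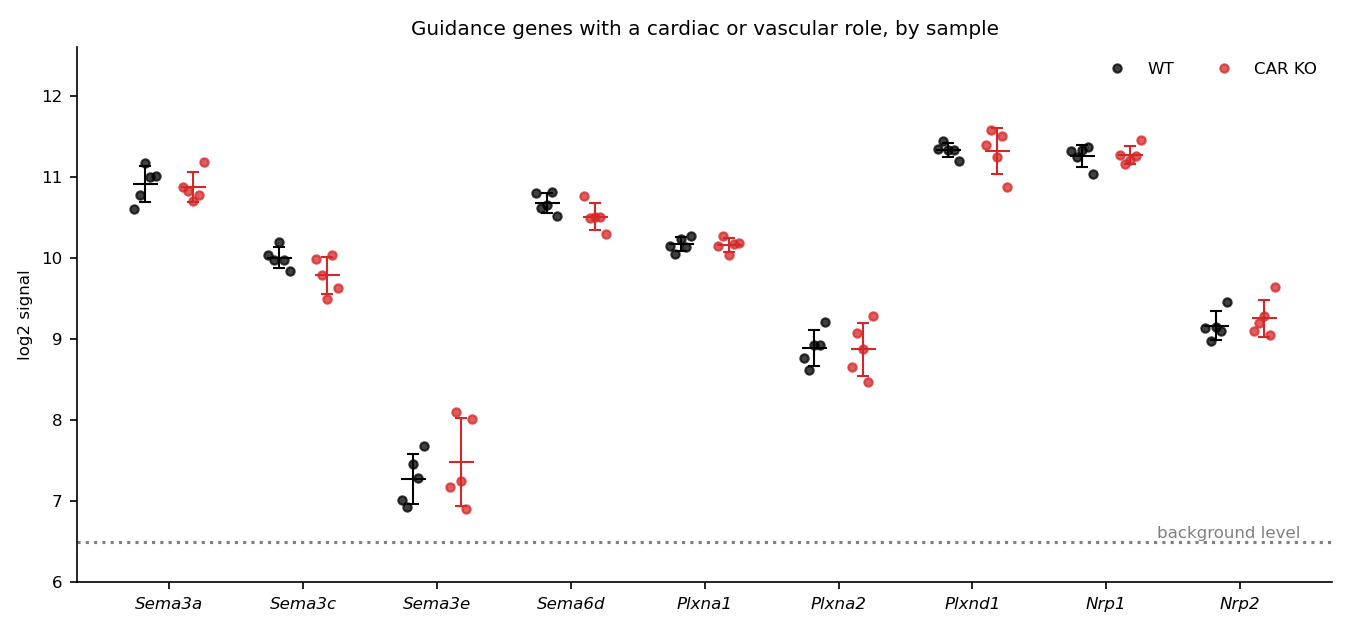
Log2 signal in each sample (points, 1 per sample) and genotype mean with SD (bars, n = 5) for the members with a known role in the embryonic heart or its vessels, WT and CAR KO side by side. The genotypes overlap for all 9 genes. Levels are not compared between genes, since probes differ in brightness.

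Of the membrane-bound semaphorins, Sema6d had the smallest permutation p, 0.0873 in the exact two-sided test. Sema6d is a ligand of Plxna1 known from chick hearts to promote migration of ventricular cells and trabeculation. Its WT values were 10.80, 10.61, 10.65, 10.81 and 10.52, and its CAR KO values 10.76, 10.49, 10.51, 10.499 and 10.29. Only CAR KO sample 1 exceeded the WT mean, and 4 of 5 CAR KO samples lay below the lowest WT sample, by small margins for 3 of them. The means were 10.68 ± 0.13 and 10.51 ± 0.17 (SD, n = 5 each), and the log2 difference for Sema6d (chr2:124089943-124667789) was -0.17 (-0.36 to 0.03), or from -22.3% to 1.77% relative to WT.

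Sema6a, a ligand of A plexins, had the most negative difference of all 30, -0.23 (-0.60 to 0.13). It read 9.59, 9.35, 9.41, 9.58 and 10.31 in WT and 9.53, 9.29, 9.31, 9.22 and 9.72 in CAR KO. WT sample 5 stood alone at the top, and CAR KO sample 5 was the highest of its genotype. The permutation test gave p = 0.286 (exact, two-sided). Sema6b and Sema6c had differences of 0.03 and -0.07, and both intervals lay inside the 1.5-fold limit.

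The class 4 genes, several of which signal through B plexins, showed small differences throughout. All 6 intervals lay inside the 1.5-fold limit, with differences from -0.07 for Sema4b to 0.15 for Sema4g, and 4 of them lay inside the 1.2-fold limit. Sema4f, with a mean log2 signal of 5.92 over all samples, was the only member not above the background of 6.50, a level set by olfactory and vomeronasal receptor genes that hearts do not use, and its difference of -0.01 is read as background. Sema4d, the ligand of Plxnb1, was reported by 2 clusters whose differences were -0.05 and 0.06 (-0.13 to 0.25).

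Sema5a and Sema5b, which carry thrombospondin repeats beside the sema domain, differed by 0.02 and -0.04. Sema5a had a wide interval (-0.43 to 0.48), since both of its highest values were those of sample 5, 8.97 in WT and 8.90 in CAR KO, where the other samples lay between 7.89 and 8.27. Sema7a, the lipid-anchored ligand of Plxnc1, differed by 0.06.

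Among the receptors, all 9 plexins had intervals inside the 1.5-fold limit and 6 of 9 inside the 1.2-fold limit, and 8 of 9 had the lower mean in CAR KO, by 0.13 or less on the log2 scale. Of these, Plxnb3 lay near the background of 6.50, with a mean log2 signal of 6.55. Its sample 5 values, 6.38 in WT and 6.46 in CAR KO, were under that level. Plxnb2, a receptor of class 4 semaphorins, had the smallest unadjusted p of all 30 members in limma, 0.0631. Its WT values were 11.03, 11.02, 11.17, 11.15 and 11.22, and its CAR KO values 11.05, 11.11, 10.89, 10.93 and 10.96. CAR KO samples 3, 4 and 5 lay below every WT sample and CAR KO samples 1 and 2 above the lowest WT ones. The difference for Plxnb2 (chr15:89155546-89182018) was -0.13 (-0.27 to 0.01), which reached down to -17.1% relative to WT, with p = 0.0556 in the exact permutation test.

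Plxna1, the receptor of Sema6d, gave nearly equal values in both genotypes. It read 10.14, 10.05, 10.23, 10.14 and 10.27 in WT and 10.15, 10.27, 10.03, 10.17 and 10.19 in CAR KO, so that the highest and the lowest values of the genotypes nearly coincided. The log2 difference for Plxna1 (chr6:89316313-89362613) was -0.0044 (-0.14 to 0.13), which bounds it between -9.30% and 9.58% relative to WT.

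Plxna2, a receptor carried by migrating cardiac neural crest cells, was less tightly bounded. WT samples read 8.76, 8.62, 8.92, 8.93 and 9.21, and CAR KO samples 8.66, 9.08, 8.87, 8.47 and 9.28. Sample 5 was the highest of each genotype and the lowest value was that of CAR KO sample 4. For Plxna2 (chr1:194619791-194816869) the difference was -0.02 (-0.35 to 0.32), exact permutation p = 0.937.

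Plxnd1, the endothelial plexin needed for outflow tract septation, read 11.35, 11.44, 11.33, 11.32 and 11.20 in WT and 11.39, 11.58, 11.24, 11.50 and 10.87 in CAR KO. CAR KO sample 5 was the lowest of all samples and WT sample 5 the lowest of its genotype, as were the means of the endothelial marker list in both. The difference for Plxnd1 (chr6:115954811-115995339) was -0.01 (-0.27 to 0.24), exact permutation p = 0.937.

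The neuropilins had slightly higher means in CAR KO, within the spread. Nrp1, the co-receptor of Sema3a and of VEGF on endothelial cells, read 11.32, 11.25, 11.33, 11.36 and 11.03 in WT and 11.27, 11.16, 11.21, 11.26 and 11.45 in CAR KO. Sample 5 held the lowest WT value and the highest CAR KO value. The difference for Nrp1 (chr8:128358591-128505476) was 0.01 (-0.16 to 0.18), exact permutation p = 0.865. Nrp2, known from veins and lymphatic vessels and as a co-receptor of Sema3f and Sema3c, read 9.14, 8.98, 9.15, 9.10 and 9.46 in WT and 9.10, 9.20, 9.28, 9.05 and 9.64 in CAR KO. Its difference (chr1:62703317-62818692) was 0.09 (-0.16 to 0.35), exact permutation p = 0.500, and again both highest values were those of sample 5.

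Sample 5 of both genotypes stood apart for several members. It held the highest value in both genotypes for 7 of 30 members (23.3%), namely Sema3f, Sema4a, Sema4g, Sema5a, Sema6a, Plxna2 and Nrp2, while 13.5% of genes above background did so. It held the lowest value in both for 4 (13.3%), Sema6d, Sema7a, Plxnb3 and Plxnd1, against 18.8% of genes above background. Sema4a, for example, read 7.93 in WT sample 5 and 8.0 in CAR KO sample 5, and between 7.18 and 7.51 in the others. Sema4g read 8.32 and 8.30 there and between 7.49 and 7.92 elsewhere.

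The means of several marker lists moved with these samples. The foregut epithelium list, with 6 of 6 genes above background, had a mean of 7.96 in WT sample 5 against 6.97 to 7.42 in the other WT samples, and of 8.01 in CAR KO sample 5 against 7.10 to 7.52. Of its 6 genes, 3 were highest in sample 5 of both genotypes. The endothelial list was at 11.07 against 11.27 to 11.37 in WT and at 10.89 against 11.16 to 11.34 in CAR KO, with 6 of its 9 genes lowest in sample 5 of both genotypes. Cardiomyocyte markers were lowest there for 7 of 8 genes. The liver and yolk sac list was at 9.40 in WT sample 5 (7.72 to 9.28 in the others) and at 10.12 in CAR KO sample 5 (7.23 to 8.89). Of its 11 genes, 7 were highest and 1 was lowest in sample 5 of both genotypes. The mean of the cushion mesenchyme list was 10.79 against 10.36 to 10.66 in WT and 10.90 against 10.48 to 10.64 in CAR KO. Only 2 of its 7 genes were highest in sample 5 of both genotypes, and 1 was lowest. The macrophage list was also highest there, at 8.08 against 7.71 to 7.89 in WT and at 7.87 against 7.51 to 7.65 in CAR KO, with 3 of its 6 genes highest in sample 5 of both genotypes. The neural crest and neuron list went opposite ways, with the highest WT mean (7.27) and the lowest CAR KO mean (6.81) in sample 5. The part of these cell types in the members' values was not tested. Without sample 5 of both genotypes, 0 of 30 members were called, 16 of 30 had the lower mean in CAR KO (44.0% of all genes did) and 1 member, Sema4g, passed an unadjusted p of 0.05 (2.65% of all clusters did).

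**Figure D3:**
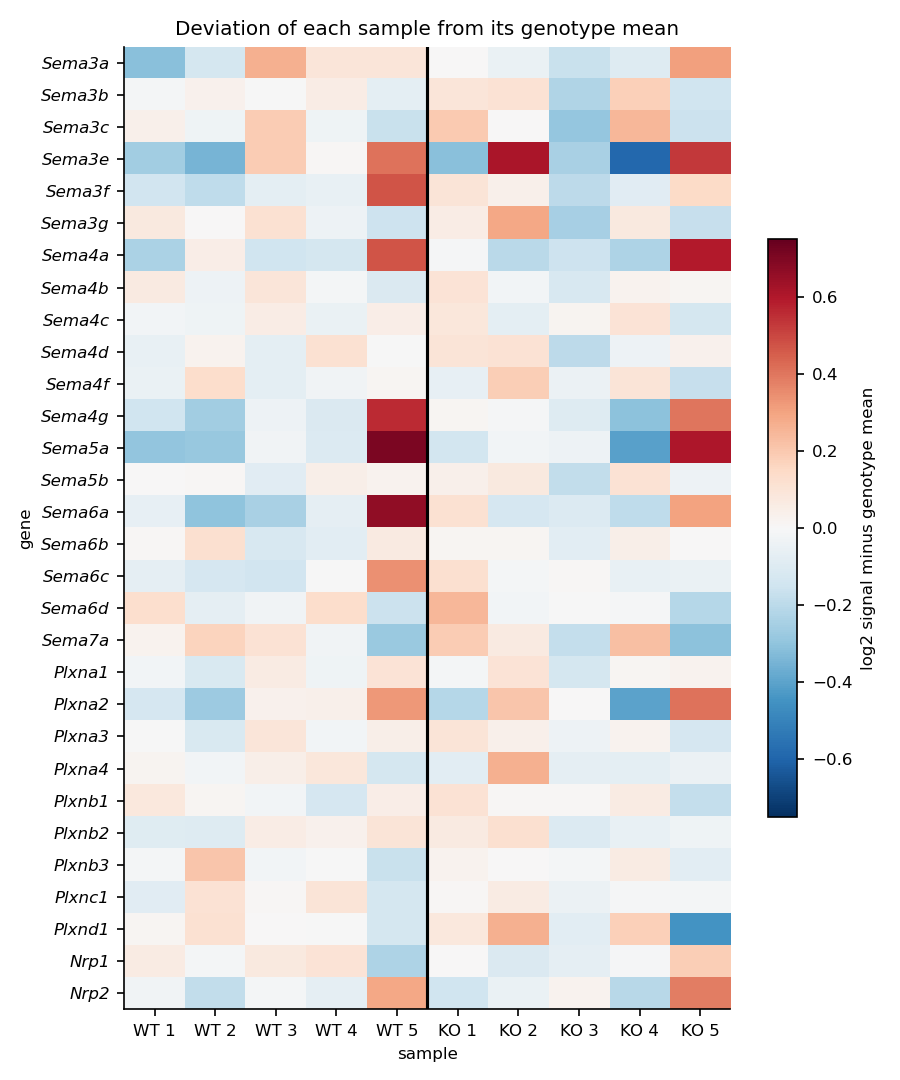
Deviation of each sample from its genotype mean (log2, colour) for the 30 genes (rows) in WT samples 1 to 5 and CAR KO samples 1 to 5 (columns). Sample 5 of both genotypes stands out in colour for genes such as Sema5a, and CAR KO sample 3 is below its genotype mean for many genes.

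**Figure D4:**
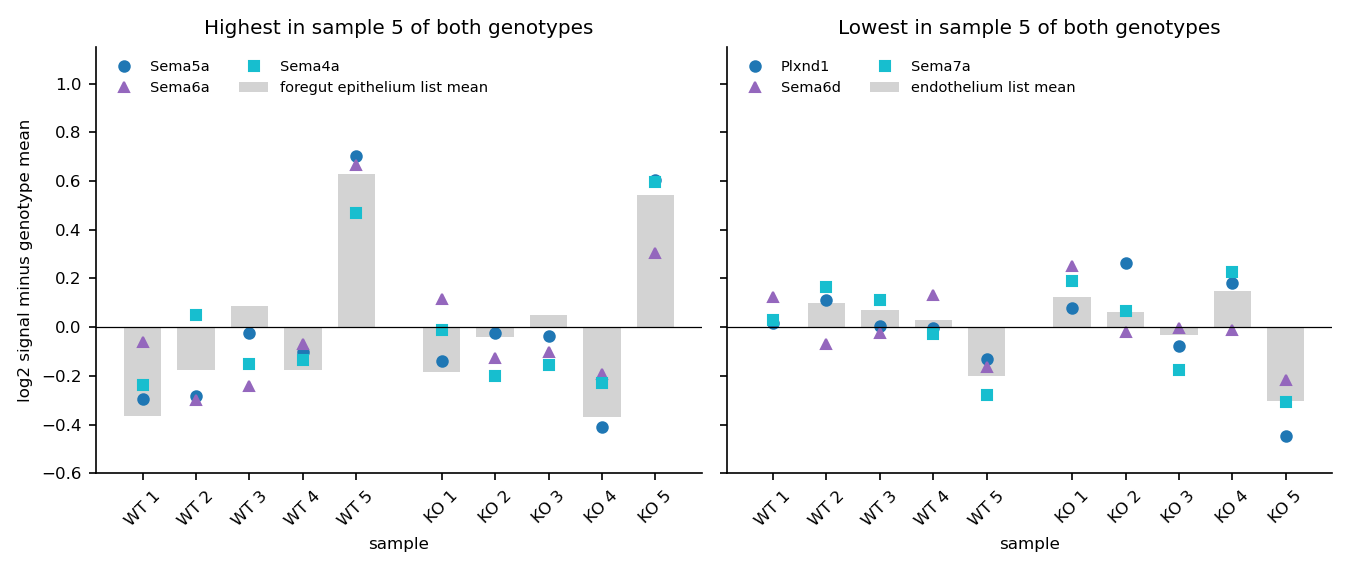
Deviation from the genotype mean (log2) in each sample for members highest in sample 5 of both genotypes (left, points) with the foregut epithelium list mean (bars), and for members lowest there (right, points) with the endothelial list mean (bars). The genes shown (Sema5a, Sema6a and Sema4a left, Plxnd1, Sema6d and Sema7a right) were picked from the 7 and 4 members with these patterns. Their extreme place in WT 5 and KO 5 follows from that choice. The bars are also extreme there, on the same side of 0 as the points. The liver and yolk sac, cushion mesenchyme and macrophage list means were highest there as well, and the cardiomyocyte list mean was lowest.

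No partner gene of the system was called either. Of 69 genes listed as co-receptors, VEGF ligands, plexin effectors, semaphorin-cleaving proteases and outflow tract transcription factors, 67 had a cluster of their own and 64 were above background. limma called 0 of 67, against 0.00345% of all clusters, and 2 passed an unadjusted p of 0.05, close to the 2.71% of all genes. For 66 of 67 (98.5%) the interval lay inside the 1.5-fold limit, near the 97.4% of all genes, the exception being Tbx1. The KO mean was lower for 47 (70.1%) and higher for 20, against 45.8% of all genes lower and 50.1% of genes above background. The median log2 difference was -0.045, beside 0.0074 over all genes. How this lean depends on single samples was not tested.

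Abl1, a tyrosine kinase of the cytoskeleton and the effector with the smallest p in limma, read 11.50, 11.28, 11.34, 11.44 and 11.57 in WT and 11.41, 11.19, 11.29, 11.24 and 11.19 in CAR KO. Its difference was -0.16 (-0.31 to -0.01), exact permutation p = 0.0476, and the genotypes overlapped. Foxc1, a forkhead factor of the outflow tract and of neural crest mesenchyme, read 8.24, 8.47, 8.50, 8.43 and 8.64 in WT and 8.39, 8.18, 8.28, 8.36 and 7.79 in CAR KO. The difference of -0.25 (-0.50 to -0.01) had an exact permutation p of 0.0635, and without CAR KO sample 5 it was -0.15. Both had an adjusted p of 1.0 in limma. In the other lists the genes with the smallest p in limma were Flt4, a VEGF receptor of lymphatic and venous endothelium, with -0.11 (-0.24 to 0.03), Pgf, a VEGF-family ligand, with 0.13 (-0.11 to 0.38), and Pcsk5, a protease that cleaves secreted precursors, with -0.18 (-0.40 to 0.03). None of these passed an unadjusted p of 0.05 in limma. Among the effectors, the exact permutation test gave a smaller p for Arhgef12 (0.0159) and Fyn (0.0238) than for Abl1. Their log2 differences were -0.10 (-0.21 to 0.01) and -0.11 (-0.24 to 0.01), and the genotypes overlapped for both.

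**Figure D5:**
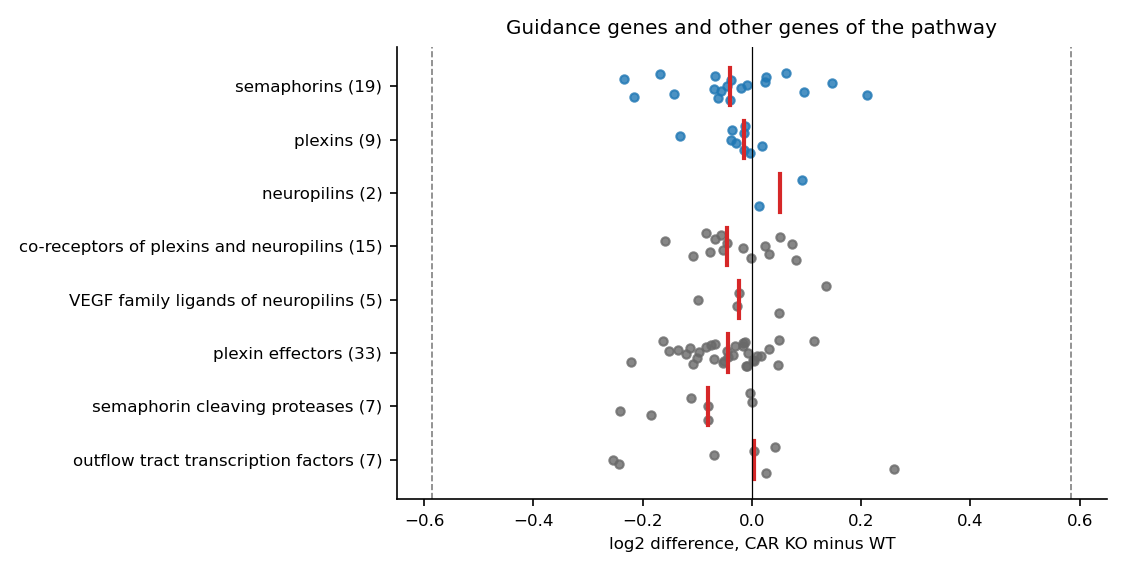
Log2 difference, CAR KO minus WT, of each of the 67 measured partner genes (points), grouped by list, beside the 30 members. Red ticks are medians and dashed lines mark a 1.5-fold change. Single differences of the partners run from -0.25 for Foxc1 to 0.26 for Isl1.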

How the data were processed

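RNA from E10.5 hearts (3 pooled per sample) was hybridised by the authors to Affymetrix Mouse Gene 1.0 ST arrays, and the authors deposited a table of log2 signals, 1 per transcript cluster. The submitters' processing notes name MAS5, and how the scanner output became this table is not stated in the sources used here. The values were used as deposited. From 35556 rows, 6612 control rows were removed, and 28944 clusters entered limma 3.58.1 (R 4.3.3; lmFit and eBayes without trend, CAR KO minus WT) with Benjamini-Hochberg adjustment over all of them. The script was tested on simulated data. Gene names came from the platform annotation and, through Entrez identifiers, from RefSeq, which matched 21698 of 21789 clusters that name 1 gene; 1621 clusters that name several and 5534 unnamed ones gave no gene. A gene was read from its brightest cluster. Background was the 95th percentile of the mean signal of 1205 olfactory and vomeronasal receptor clusters. The methods' t-test is the equal-variance test behind the study's 2-group ANOVA.

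The members and lists were chosen with earlier results of these data known. Given in full were Sema3a, Sema3c, Sema3e, Sema6d, Plxna1, Plxna2, Plxnd1, Nrp1 and Nrp2, for their known roles in the embryonic heart or its vessels, any member with an unadjusted p under 0.05 (there was none) and, from each pathway list, the genes with an unadjusted p under 0.05 and the gene with the smallest p; other genes were singled out after their values were seen. Rhod and Pak1, of the pathway lists, had no cluster of their own. Alternatives were quantile normalisation, median centring, a filter on dim clusters, clusters naming 1 gene, another variance prior, the methods' t-test, weights per array, a block for the sample number, each sample left out, the liver-rich samples left out or a liver covariate, and the mean of a gene's clusters. On arrays the number of samples limits the precision. The exact permutation tests, two-sided over samples, could not give a p under 0.00794. Promoter sequences were those of RefSeq.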

Additional observations from a re-analysis of the deposited data

Results flagged for a closer look

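In a group of 5 samples, a value was singled out when its gap to the nearest other sample, divided by the range of the group, exceeded 0.71. Of 90 groups examined (the members, the partner genes given in full, the marker list means and Cxadr, in each genotype), 9 exceeded it, where chance gives about 1 in 20 or 4.5. WT sample 5 was the high value for Sema3f (9.99 against 9.33 to 9.46, gap over range 0.797), Sema4g (8.32 against 7.49 to 7.72, 0.724), Sema5a (8.97 against 7.98 to 8.25, 0.731), Sema6a (10.31 against 9.35 to 9.59, 0.751) and Sema6c (8.79 against 8.30 to 8.44, 0.715). CAR KO sample 5 was the high value for Sema4a (8.0 against 7.18 to 7.39, 0.735). CAR KO sample 2 was the high value for Plxna4, an A plexin of axons (10.35 against 10.002 to 10.04, 0.897). Among marker lists, the cardiomyocyte mean was low in CAR KO sample 5 (12.72 against 12.99 to 13.06, 0.795). The mean of the neural crest and neuron list was high in WT sample 5 (7.27 against 6.99 to 7.05, 0.786). Of its genes, Stmn2 stood furthest out there (9.46 against 8.08 to 8.43), while Foxd3 and Tubb3 were not highest there. In CAR KO the mean of this list was lowest in sample 5 (6.81 against 6.94 to 7.10).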

How the results depend on the processing

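Under all 22 alternatives (21 set beforehand, and the removal of sample 5 of both genotypes, chosen after seeing the data) limma or the methods' t-test called no member and no partner, and the smallest adjusted p of a member was 0.775. The filter on dim clusters kept 28 members, of which 26 lay inside the 1.5-fold limit and 12 inside the 1.2-fold limit. Under the other alternatives these counts were 27 to 30 and 13 to 20 of 30. The members' median difference stayed between -0.046 and -0.0023. Cxadr kept its call in every one. Members at an unadjusted p under 0.05, 0 in the report, were 1 (Plxnb2) with the trend and robust prior, the methods' t-test or array weights, 1 (Sema4g) without sample 5 of both genotypes, and 0 to 3 when single samples were left out: 3 without WT 5 (Sema3c, Sema4g, Sema6d), 2 without CAR KO 1 (Sema3c, Sema6d), and 1 without WT 1, WT 2 or CAR KO 2 (Plxnb2) or CAR KO 4 (Sema3c). Partners at that level, 2 in the report, were 4 with array weights, 4 when the 3 liver-rich samples were dropped, and between 0 and 3 with single samples left out (0 without WT 4 or CAR KO 3, 1 without WT 3 or CAR KO 5). Under a replicate block for the number in the labels, 2 members (Sema6a, Sema6d) and 6 partners reached it. Isl1, with 0.26 (-0.05 to 0.57) in the report, reached it with array weights and under the block. It also did so without the liver-rich samples and without sample 5 of both genotypes. Foxc1 reached it in none of these settings. Of all clusters, 2.4% were at that level in the report, 2.3% with the trend and robust prior, 2.63% in the methods' t-test, 6.26% with array weights, 4.51% under the block, 4.19% when the liver-rich samples were dropped, 2.65% without sample 5 of both genotypes and 1.42% to 3.56% with single samples left out. The labels do not say whether same-numbered samples share a litter or batch. The block fit treats them as pairs and the main fit does not. Whether they are pairs was not tested. Deviations of same-numbered samples correlated between 0.073 and 0.56. A sample's closest counterpart carried its own number for 3 of 5 WT and 4 of 5 CAR KO samples. Some uncalled differences near 0 changed sign. With a sample left out, Sema3a ranged from -0.12 to 0.025, Plxna1 from -0.033 to 0.028, Plxna2 from -0.12 to 0.085, Plxnd1 from -0.079 to 0.099, Nrp1 from -0.045 to 0.040 and Nrp2 from -0.0051 to 0.16. Plxna1 was 0.0019 after quantile normalisation and 0.015 without sample 5, and Plxna2 0.0056 with the liver covariate. Plxnd1 and Nrp1 were 0.051 and -0.055 with array weights, 0.093 and -0.11 without the liver-rich samples, and 0.067 and -0.091 without sample 5. The cause was not tested.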
